A study of Arabidopsis thaliana with 15 samples.

Results

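Expression of 9 genes for DREB transcription factors was followed in Arabidopsis plants of 5 groups: DREB26, AT1G33760 (ERF022), ORA47, TINY, TINY2, CEJ1 (DEAR1), RAP2.1, RAP2.9 and RAP2.10. They were chosen by gene identifier out of the 33977 features counted, and all 9 were listed in each plant and passed the filter on low counts in 6 of the 7 comparisons. AT1G33760 did not pass it between Gen5 and Gen1 memory plants. DREB26 and AT1G33760 were taken up because their counts were low in memory plants, so the memory comparisons describe these genes and do not test them. RNA-seq libraries were made from 15 plants of ecotype Columbia-0 (Col-0), in 5 groups of 3: Gen5 memory, Gen1 memory, Gen1 nonmemory, Gen5 WT and Gen1 WT. Memory plants had lost an RNAi transgene against MSH1, a nuclear gene for an organelle DNA maintenance protein. The paper describes them as uniformly slow in growth, late in flowering and pale-leaved, a distinct state that only part of the transgene-free progeny showed. Gen1 nonmemory plants were transgene-free full sibs with a normal phenotype. The Gen5 memory plants descended from the Gen1 memory state by selfing, and all memory and nonmemory plants went back to 1 transformed parent. WT plants came from transformation events that carried no transgene and were grown in parallel. All plants were grown at 12 h daylength and 22 °C and collected at early bolting, as whole plants by the methods and as whole rosette by the labels. As memory plants flower late, plants collected at this same stage may differ in age between groups, and their ages are not given here.

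DREB proteins are the branch of the plant-specific AP2/ERF family that binds the dehydration-responsive element (DRE), a short promoter motif with the core CCGAC. The branch is divided into subgroups A-1 to A-6. The A-1 proteins (CBF/DREB1) and A-2 proteins (DREB2) activate genes of cold, drought and heat tolerance, whereas several A-5 proteins carry an EAR motif and repress genes with the same element. Of the 9 genes, AT1G33760, TINY and TINY2 belong to subgroup A-4 and the other 6 to A-5.

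Library totals ran from 77169986 to 79202824 counts, so depth differed little. MSH1 itself averaged 817 ± 160 normalized counts in Gen5 memory, 876 ± 11.9 in Gen1 memory, 781 ± 32.2 in Gen1 nonmemory, 716 ± 56.4 in Gen5 WT and 793 ± 18.2 in Gen1 WT (SD, n = 3 each), and it passed the test in none of the 7 comparisons (edgeR). Normalized counts are read counts scaled to a common library size by TMM over all 15 plants. The 4 rosette leaf markers were counted in every plant. Of the 5 flower markers, AG (27.5 to 97.6 normalized counts) and SEP3 (5.62 to 34.1) were counted in every plant, while AP1, AP3 and PI reached at most 11.6 and were at 0 in 10, 6 and 3 plants. Summed, the flower markers ran from 66.1 to 83.8 in Gen5 memory, from 50.8 to 76.0 in Gen1 memory, from 63.0 to 96.7 in Gen1 nonmemory, from 91.1 to 115 in Gen5 WT and from 99.8 to 112 in Gen1 WT. In Gen1 memory relative to Gen1 WT, AG was lower (log2 fold change -1.10, edgeR adjusted p = 0.031) and SEP3 higher (1.44, adjusted p = 0.0339). Of the 4 root markers, MYB36 was at 0 in all 15 plants, and the summed level was at most 8.46 except in 1 Gen5 memory plant, where PYK10 reached 45.0. The summed leaf markers ran from 3575476 to 4366258 normalized counts in Gen5 memory, from 3598216 to 3778258 in Gen1 memory, from 2223322 to 2452749 in Gen1 nonmemory, from 2097474 to 2466830 in Gen5 WT and from 2085837 to 2265333 in Gen1 WT. Of the leaf markers, RCA, CAB1 and LHCB2.1 were higher in memory plants without overlap. RBCS1A overlapped, at 1077326.5 to 1376196 in memory and 922039 to 1175125 in the other plants. LHCB2.1 had 125182 or more in memory plants and at most 23826 in the others. The summed leaf markers were higher in all 6 memory plants than in the 9 others. The flower sum, which was mostly AG, was lower in memory than in WT plants but overlapped between memory and Gen1 nonmemory plants. Neither AG nor SEP3 was called in Gen5 memory relative to Gen5 WT. The part of the leaf or flower marker differences in the results given next was not tested. In whole tissue, fewer cells of a type and less RNA per cell cannot be told apart.

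DREB26 (AT1G21910), an A-5 factor that activates transcription in reporter assays, and AT1G33760 were the genes with the lowest levels in memory plants relative to the rest. DREB26 lies on chr1:7696427-7697831 of TAIR10.1 on the plus strand and has 1 exon. It had 42.3, 39.3 and 29.3 normalized counts in the Gen5 memory plants and 34.4, 39.1 and 41.6 in the Gen1 memory plants. It had 1140.4, 2859 and 1365 in the Gen1 nonmemory plants, 6988, 5759 and 5679 in the Gen5 WT plants and 2273, 3941 and 4659.5 in the Gen1 WT plants. All 6 memory plants were therefore below all 9 others, and the highest memory plant stood at 42.3 against 1140.4 in the lowest of the rest. The log2 fold change was -7.36 (SE 0.16; 165-fold lower) in Gen5 memory relative to Gen5 WT. In Gen1 memory it was -5.54 (SE 0.42; 46.4-fold lower) relative to Gen1 nonmemory and -6.55 (SE 0.32; 93.5-fold lower) relative to Gen1 WT. DREB26 passed the thresholds in all 6 fits with 1 plant left out of each memory comparison. Per length, DREB26 had the highest level of the 9 genes in Gen5 WT, with 55.7 ± 6.65 RPKM (normalized reads scaled to exon length and library size), against 12.1 ± 3.68 RPKM for CEJ1 as the next. In Gen5 memory its level was 0.335 ± 0.0614 RPKM, and only AT1G33760 was lower (SD, n = 3 each).

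AT1G33760 lies on chr1:12237547-12238710, also with 1 exon. It was close to undetected in memory plants: 2, 3 and 3 raw reads were counted in the Gen5 memory plants and 2, 1 and 3 in the Gen1 memory plants. Raw reads numbered 81, 526 and 378 in the Gen1 nonmemory plants, 478, 280 and 288 in the Gen5 WT plants and 261, 546 and 665 in the Gen1 WT plants. The groups did not overlap, and Gen1 nonmemory replicate 1 was the lowest of the 9 other plants. With so few reads the ratio is given with its exact counting interval (95%), which covers counting error only. Summed over plants, 8 reads in Gen5 memory stood against 1046 in Gen5 WT, a depth-corrected ratio of 0.00762 (0.00328 to 0.0151). In Gen1 memory, 6 reads stood against 985 in Gen1 nonmemory, a ratio of 0.00605 (0.00222 to 0.0132), and against 1472 in Gen1 WT, a ratio of 0.00403 (0.00148 to 0.00879). The fitted log2 fold changes were -6.80 (SE 0.39), -7.15 (SE 0.93) and -7.69 (SE 0.55) in these 3 comparisons and depend on the prior count.

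The plot of normalized counts by plant shows each of the 9 genes.

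**Figure D1:**
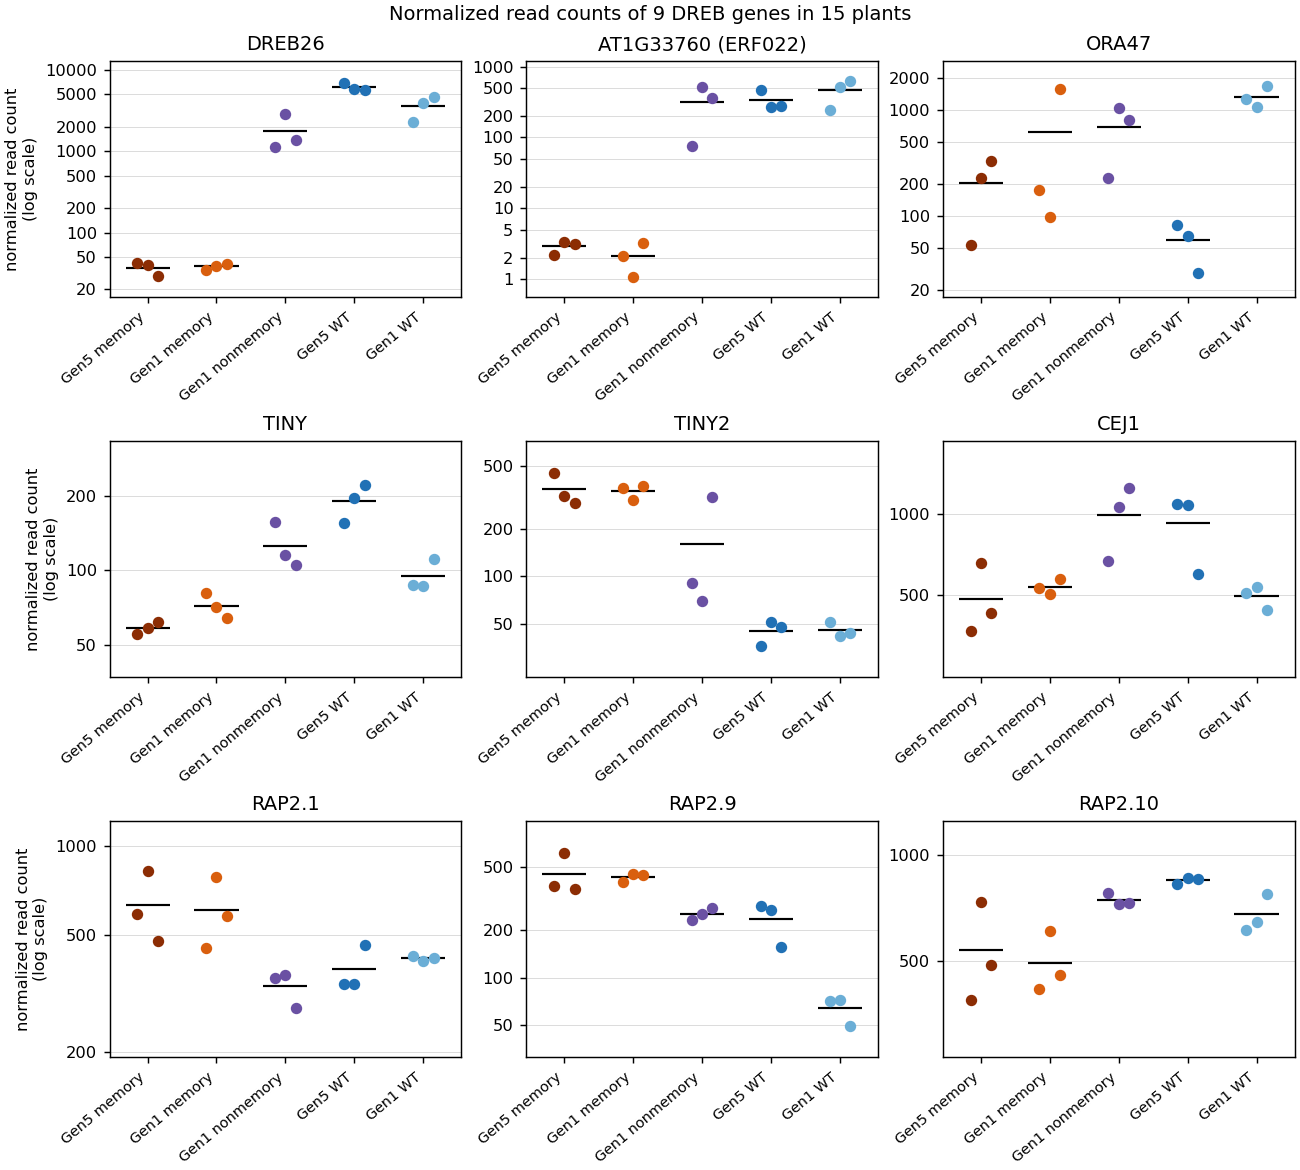
Normalized read counts (log axes) of the 9 DREB genes in the 15 plants, with 1 panel per gene, 1 point per plant and a black line at the mean of each group of 3. DREB26 and AT1G33760 reached at most 42.3 and 3.37 in the 6 memory plants. RAP2.9 was lowest in Gen1 WT, and ORA47 in Gen5 WT.

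AT1G77640, an A-5 gene that is not among the 9, was the annotated gene most similar to DREB26 (68.3% identity over 808 bp). It had 1.08, 12.4 and 9.43 normalized counts in the Gen5 memory plants and 8.33, 7.40 and 4.26 in the Gen1 memory plants, against 112 to 279 in Gen1 nonmemory, 471 to 587 in Gen5 WT and 258 to 513 in Gen1 WT plants.

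ORA47 (AT1G74930), an A-5 factor known as an activator of jasmonate synthesis genes and itself induced by jasmonate, overlapped between memory and other plants. It had 53.1, 230.4 and 333 normalized counts in the Gen5 memory plants and 178, 97.3 and 1582 in the Gen1 memory plants. It had 227, 1041 and 803 in the Gen1 nonmemory plants, 82.9, 65.4 and 29.4 in the Gen5 WT plants and 1259, 1063 and 1686 in the Gen1 WT plants. Gen1 memory replicate 3 stood at the level of Gen1 WT, and the other 2 Gen1 memory plants were below all Gen1 nonmemory plants. The log2 fold change was 1.80 (SE 0.63) in Gen5 memory relative to Gen5 WT. In Gen1 memory it was -0.16 (SE 0.99) relative to Gen1 nonmemory and -1.10 (SE 0.89) relative to Gen1 WT. ORA47 was called in none of these 3 comparisons, although the Gen5 value passed with DESeq2 and with no filter on low counts (1.80 in both). Without Gen1 memory replicate 3 the Gen1 values became -2.32 and -3.26 and passed the thresholds, and without Gen5 memory replicate 1 the Gen5 value became 2.25 and passed. The kit does not mark strand, and AT1G74929 overlaps ORA47 on the other strand over 102 bp with 19 to 58 raw reads in a plant.

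Of the 9 jasmonate synthesis genes listed, 2 were higher and 3 lower in Gen5 memory than in Gen5 WT, 1 was higher and 2 lower in Gen1 memory than in Gen1 nonmemory, and 2 were higher and 1 lower in Gen1 memory than in Gen1 WT. Their median log2 fold changes were 0.23, 0.15 and 0.20, against 0.01, 0.01 and -0.01 over all genes tested, of which 13.3%, 11.1% and 9.52% were called higher and 13.7%, 12.2% and 10.5% lower. LOX4, a lipoxygenase of the pathway, was lower in all 3, with 835 ± 321 normalized counts in Gen5 memory against 3181 ± 774 in Gen5 WT (log2 fold change -1.92, SE 0.28, edgeR adjusted p = 0.00125). OPR3, the reductase that acts on the jasmonate precursor OPDA, fell in Gen5 memory (log2 fold change -0.63, SE 0.16, edgeR adjusted p = 0.014) and relative to Gen1 nonmemory (-0.84, SE 0.10, adjusted p = 0.000734). None of the 9 passed both thresholds between Gen5 WT and Gen1 WT, where ORA47 itself changed. At an adjusted p under 0.05 alone (edgeR), OPR3 (0.0333), AOC1 (0.00403) and AOC4 (0.0334) would. OPR3 (mean 10614 in Gen5 WT against 8760 in Gen1 WT) and AOC1 (2834 against 2144) were higher in Gen5 WT, and AOC4 (2309 against 2813) was lower. A link between ORA47 and these genes was not tested.

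TINY (AT5G25810) and TINY2 (AT5G11590), A-4 factors of high similarity whose overexpression dwarfs plants, went in opposite directions in Gen5 memory plants. TINY had 55.3, 58.4 and 61.8 normalized counts in Gen5 memory and 81.2, 70.8 and 63.9 in Gen1 memory plants, against 157, 115 and 105 in Gen1 nonmemory, 156, 196 and 223 in Gen5 WT and 87.5, 86.2 and 111 in Gen1 WT plants. All 6 memory plants were below the 9 others, with the closest plants at 81.2 and 86.2. The log2 fold change of TINY was -1.70 (SE 0.20) in Gen5 memory relative to Gen5 WT. In Gen1 memory it was -0.80 (SE 0.23) relative to Gen1 nonmemory and -0.39 (SE 0.21, not past the thresholds) relative to Gen1 WT. The call against Gen1 nonmemory was lost without Gen1 memory replicate 2 or 3, or without Gen1 nonmemory replicate 1 or 2, with log2 fold changes between -0.91 and -0.61 over the 6 fits.

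TINY2 had 452, 324 and 293 normalized counts in Gen5 memory and 365, 307 and 372 in Gen1 memory plants. It had 91.2, 69.7 and 317 in Gen1 nonmemory, 36.5, 51.2 and 48.1 in Gen5 WT and 51.8, 42.2 and 44.1 in Gen1 WT plants. Only Gen1 nonmemory replicate 3 reached the memory range. The log2 fold change was 2.98 (SE 0.24; 7.90-fold higher) in Gen5 memory relative to Gen5 WT and 2.92 (SE 0.17; 7.59-fold higher) in Gen1 memory relative to Gen1 WT. Relative to Gen1 nonmemory it was 1.13 (SE 0.52), which did not pass. It passed with all 15 plants in 1 fit (1.13) and without Gen1 nonmemory replicate 3 (2.11).

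CEJ1 (AT3G50260), RAP2.1 (AT1G46768), RAP2.9 (AT4G06746) and RAP2.10 (AT4G36900) belong to the DEAR group of A-5 factors. CEJ1 and RAP2.1 are known as EAR-motif repressors, RAP2.1 of DRE-bearing cold and drought genes. RAP2.9 was highest in memory plants, with 378, 616 and 364 normalized counts in Gen5 memory and 402, 451 and 445 in Gen1 memory plants. It had 233, 253 and 275 in Gen1 nonmemory, 283, 267 and 156 in Gen5 WT and 71.5, 71.9 and 49.7 in Gen1 WT plants. Memory plants did not overlap the others, and Gen1 WT stood below all other groups. Its log2 fold change was 0.95 (SE 0.28) in Gen5 memory relative to Gen5 WT. In Gen1 memory it was 0.78 (SE 0.12) relative to Gen1 nonmemory and 2.76 (SE 0.18) relative to Gen1 WT. The Gen5 call was lost without Gen5 memory replicate 2 or Gen5 WT replicate 2 or 3, with values between 0.66 and 1.10.

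RAP2.1 was also higher in memory plants, with 587, 821 and 478 normalized counts in Gen5 memory and 451, 782 and 581 in Gen1 memory plants, against 357, 366 and 283 in Gen1 nonmemory, 340.4, 341 and 463 in Gen5 WT and 424, 406 and 416 in Gen1 WT plants. Within each generation the memory plants were above the rest, whereas over all plants Gen5 WT replicate 3 reached the lowest Gen1 memory plant. Its log2 fold changes were 0.73 (SE 0.22) in Gen5 memory relative to Gen5 WT, 0.85 (SE 0.21) in Gen1 memory relative to Gen1 nonmemory and 0.55 (SE 0.19, not past the thresholds) relative to Gen1 WT. The Gen5 call was lost without Gen5 memory replicate 1 or 2 or Gen5 WT replicate 1 or 2 (0.48 to 0.89 over the 6 fits). The call against Gen1 nonmemory was lost without Gen1 nonmemory replicate 3 (0.74), and that against Gen1 WT was gained without Gen1 memory replicate 1 (0.74) and with DESeq2 (0.56).

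RAP2.10 went the other way. It had 386, 735 and 486 normalized counts in Gen5 memory and 416, 609 and 455 in Gen1 memory plants, against 781, 727 and 730.3 in Gen1 nonmemory, 831, 859 and 856 in Gen5 WT and 613, 646 and 776 in Gen1 WT plants. Gen5 memory replicate 2 lay within the range of the other groups, and the other 5 memory plants were below all of them. Its log2 fold changes were -0.66 (SE 0.21) in Gen5 memory relative to Gen5 WT, -0.59 (SE 0.15) in Gen1 memory relative to Gen1 nonmemory and -0.45 (SE 0.17, not past the thresholds) relative to Gen1 WT. Only the fit without Gen5 memory replicate 2 kept the Gen5 call, at -0.96. The call against Gen1 nonmemory was lost without replicate 1 of either group (values from -0.78 to -0.49 over the 6 fits), and that against Gen1 WT was gained without Gen1 memory replicate 2 (-0.62).

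CEJ1 had 367, 656 and 429 normalized counts in Gen5 memory and 529, 503 and 571 in Gen1 memory plants. It had 668, 1061 and 1249.7 in Gen1 nonmemory, 1089, 1079 and 599 in Gen5 WT and 509, 537 and 439 in Gen1 WT plants. Memory plants thus lay near Gen1 WT and mostly below the other 2 groups. Its log2 fold changes were -0.92 (SE 0.28) in Gen5 memory relative to Gen5 WT, -0.89 (SE 0.21) in Gen1 memory relative to Gen1 nonmemory and 0.12 (SE 0.11, not past the thresholds) relative to Gen1 WT. The Gen5 call was lost without Gen5 memory replicate 1 or 3 or Gen5 WT replicate 1 or 2 (-1.21 to -0.77 over the 6 fits), and the call against Gen1 nonmemory without replicate 2 of either group (-1.11 to -0.69).

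**Figure D2:**
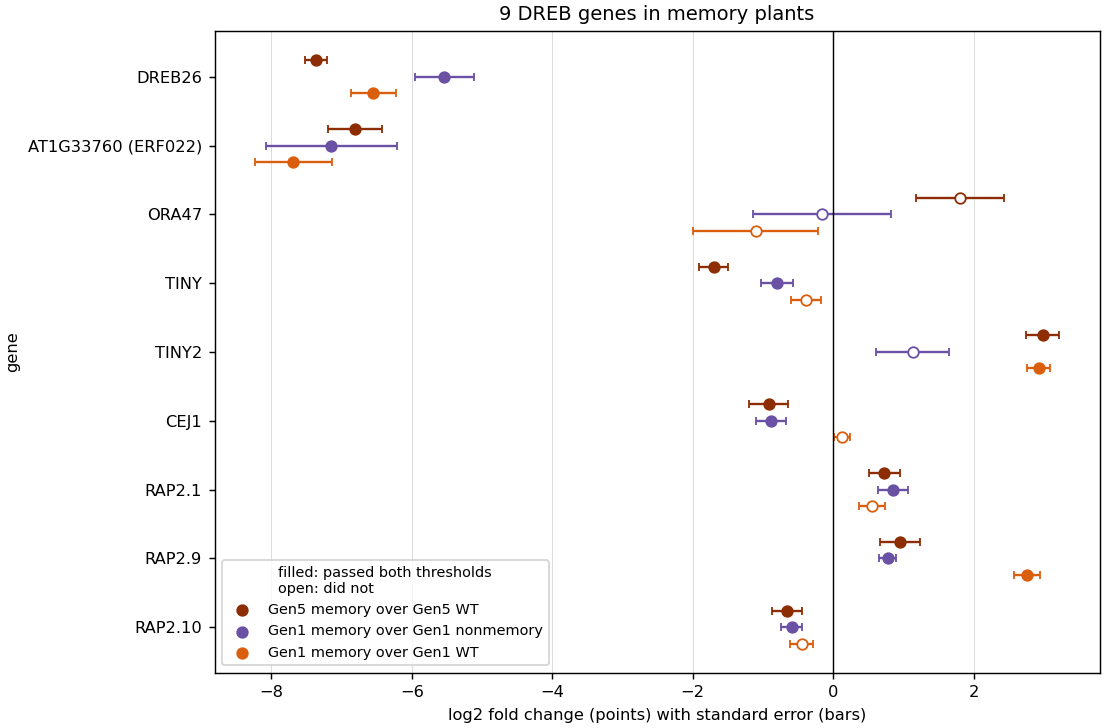
Log2 fold changes (x axis) of the 9 DREB genes in memory plants relative to Gen5 WT, Gen1 nonmemory and Gen1 WT, with standard errors as bars and filled points for genes past both thresholds. DREB26 and AT1G33760 lay between -7.69 and -5.54, while every other gene lay between -1.70 and 2.98.

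Counted together, 8 of the 9 genes were called in Gen5 memory relative to Gen5 WT (3 higher, 5 lower), against 27.0% of all 19800 genes tested. In Gen1 memory 7 were called relative to Gen1 nonmemory (2 higher, 5 lower), against 23.4% of all genes, and 4 relative to Gen1 WT (2 higher, 2 lower), against 20%. A gene was called where the edgeR adjusted p was under 0.05 and the log2 fold change was beyond 0.5 in either direction. These comparisons chose the genes, so nothing is read from the counts. The count in Gen5 fell in each of the 6 fits with 1 plant left out, to between 4 and 6. It was 5 without Gen5 WT replicate 1 and 4 without Gen5 WT replicate 2. The 2 Gen1 comparisons share the Gen1 memory plants. DREB26 and AT1G33760 were called lower in all 3 comparisons, and RAP2.9 was called higher in all 3. The share of all genes called the same way in all 3 is not given, so nothing is read from this. Without overlap, DREB26, AT1G33760 and TINY were lower in the 6 memory plants than in the 9 others and RAP2.9 was higher; 13.6% and 11.8% of 20065 genes did the same.

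Gen5 memory and Gen1 memory plants did not differ detectably in these genes. The choice did not use this comparison, but it used the plants of both groups. DREB26 and AT1G33760 were taken up because they were low in memory plants, so the likeness of these groups in them is no separate support. None of the 8 tested was called (edgeR adjusted p = 1 for each), and none of all 19716 genes tested was (0.00%). DESeq2 called 6. An unadjusted p under 0.05 (edgeR) was reached by 353 genes, and by 1153 with all 15 plants in 1 fit. Replicate plants differed widely in both groups, with a chi-square per degree of freedom of 75.1 to 139 in Gen1 memory and 36.1 to 124 in Gen5 memory. The lack of calls therefore does not show that the generations were alike. DREB26 differed by a log2 fold change of -0.05 (SE 0.31), TINY2 by 0.04 (SE 0.19) and RAP2.9 by 0.06 (SE 0.22). ORA47 had the largest value of the 8, -1.58 (SE 1.02), which turned to 0.57 without Gen1 memory replicate 3. Whether the memory effect itself differed between generations was not tested.

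The nonmemory and WT plants differed among themselves in several of the genes. These comparisons did not choose the genes, but their plants were the references in the comparisons that did. The genes were also chosen with earlier results of these data known, so the adjusted p is given as a description. Between Gen5 WT and Gen1 WT, 4 of the 9 were called (3 higher, 1 lower), against 10.7% of all genes (4.69% higher, 6.05% lower). ORA47 fell in Gen5 WT by 4.50 on the log2 scale (SE 0.32, 22.6-fold, edgeR adjusted p = 0.000318), and its groups did not overlap. RAP2.9 rose (1.86, SE 0.27, adjusted p = 0.00298), TINY rose (1.01, SE 0.19, adjusted p = 0.00811) and CEJ1 rose (0.89, SE 0.22, adjusted p = 0.0233). The ORA47, RAP2.9 and TINY calls held in all 6 fits with 1 plant left out. The CEJ1 call held only without Gen5 WT replicate 3 (adjusted p 0.00162 to 0.0841 over the 6 fits). DREB26 had a log2 fold change of 0.75 (SE 0.23, adjusted p = 0.051), which passed without Gen1 WT replicate 1 (0.51) or 3 (0.98), with no filter on low counts (0.76, adjusted p = 0.042) and with DESeq2 (0.76). RAP2.10 had 0.32 (SE 0.10, adjusted p = 0.0479), under the fold threshold.

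Between Gen1 nonmemory and Gen1 WT, 2 of the 9 were called, both higher, against 7.71% of all genes (2.82% higher, 4.89% lower). RAP2.9 rose by 1.97 on the log2 scale (SE 0.18, 3.93-fold, edgeR adjusted p = 0.0015) and CEJ1 by 1.00 (SE 0.21, adjusted p = 0.0185). RAP2.9 held in all 6 fits with 1 plant left out, whereas CEJ1 was lost without Gen1 nonmemory replicate 2 or 3 or Gen1 WT replicate 1 or 2 (adjusted p up to 0.062). The count of 2 became 1 without Gen1 nonmemory replicate 3, Gen1 WT replicate 1 or Gen1 WT replicate 2. DREB26 had a log2 fold change of -1.02 (SE 0.38, adjusted p = 0.0963) and passed without Gen1 nonmemory replicate 2 (-1.54, adjusted p = 0.0286) and with all 15 plants in 1 fit (-1.02, adjusted p = 0.0357). TINY2 had 1.79 (SE 0.56, adjusted p = 0.0622) and passed without the same plant (2.14, adjusted p = 0.0453), with all 15 plants in 1 fit (1.79, adjusted p = 0.0181) and with DESeq2 (1.79).

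Between Gen1 nonmemory and Gen5 WT, 2 of the 9 were called (1 higher, 1 lower), against 1.70% of all genes (0.577% higher, 1.12% lower). ORA47 was higher by 3.54 on the log2 scale in Gen1 nonmemory (SE 0.59, edgeR adjusted p = 0.0199) and DREB26 lower by 1.78 (SE 0.31, adjusted p = 0.0237). These groups differ in both line and generation, which cannot be told apart here. Relative to Gen1 WT, ORA47 in Gen1 nonmemory had -0.95 (SE 0.46, edgeR adjusted p = 0.184) and was not called. With all 15 plants in 1 fit the ORA47 call was lost (3.54, adjusted p = 0.116), and TINY2 passed with DESeq2 (1.82). With the replicate number as a block, neither ORA47 (edgeR adjusted p = 0.0844) nor DREB26 (0.0593) was called. ORA47 was lost without Gen1 nonmemory replicate 2 or 3 or Gen5 WT replicate 1 or 2 (adjusted p 0.00517 to 0.0992), and DREB26 without Gen1 nonmemory replicate 3 or Gen5 WT replicate 1 or 2 (0.00147 to 0.0881). No call remained without Gen1 nonmemory replicate 3, Gen5 WT replicate 1 or Gen5 WT replicate 2, and 1 remained without Gen1 nonmemory replicate 2. These 3 comparisons share plants pairwise.

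**Figure D3:**
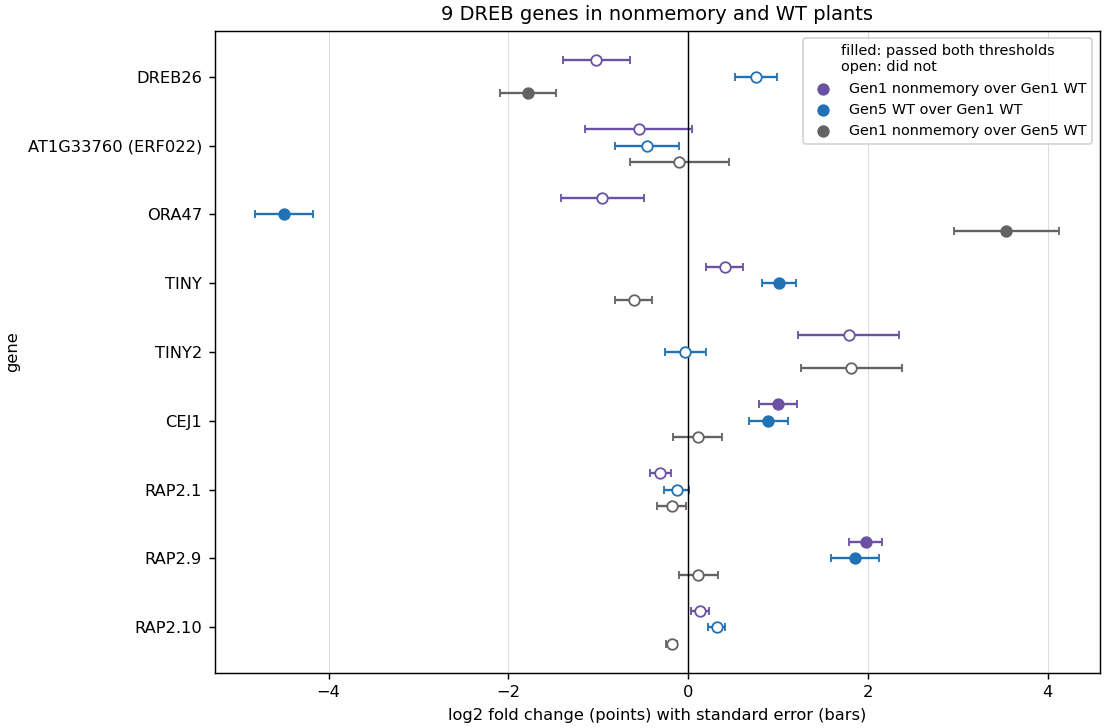
Log2 fold changes (x axis) of the 9 DREB genes between Gen1 nonmemory, Gen5 WT and Gen1 WT, with standard errors as bars and filled points for genes past both thresholds. ORA47 differed most between Gen5 WT and Gen1 WT (-4.50), and CEJ1 and RAP2.9 were higher in both Gen1 nonmemory and Gen5 WT than in Gen1 WT.

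CEJ1 and RAP2.9, the genes higher in both Gen1 nonmemory and Gen5 WT than in Gen1 WT, hold the DRE core CCGAC in the 250 bases before their starts, in capitals on the strand of each gene (as GTCGG, the reverse complement). CEJ1 is given for chr3:18634296-18634545 (plus strand) and RAP2.9 for chr4:4074736-4074985 (minus strand) of TAIR10.1. In RAP2.9 the second run in capitals, AGTCAA, is a W-box read on the other strand.
CEJ1: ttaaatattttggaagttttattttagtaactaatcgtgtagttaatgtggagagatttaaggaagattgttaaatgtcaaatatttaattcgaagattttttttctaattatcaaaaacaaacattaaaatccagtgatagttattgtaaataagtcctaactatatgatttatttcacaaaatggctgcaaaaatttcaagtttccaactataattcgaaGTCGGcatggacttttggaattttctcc
RAP2.9: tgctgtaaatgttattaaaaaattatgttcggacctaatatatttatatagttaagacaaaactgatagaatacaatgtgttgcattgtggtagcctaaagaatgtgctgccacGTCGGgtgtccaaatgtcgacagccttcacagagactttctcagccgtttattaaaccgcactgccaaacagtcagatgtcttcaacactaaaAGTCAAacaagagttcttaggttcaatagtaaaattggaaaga
RAP2.10 holds the core too (bases -55 to -51), so that 3 of the 9 promoters had it on either strand, against 12.0% of 27443 promoters. Unlike CEJ1 and RAP2.9, it was not called in Gen1 nonmemory or Gen5 WT relative to Gen1 WT (log2 fold changes 0.14 and 0.32). Whether the motif has a part in these levels was not tested. Of the other motifs searched on both strands, the evening element AAATATCT was found in AT1G33760 (4.79% of promoters) and the W-box TTGACC or TTGACT in RAP2.9 (28.4%). CGCGTT, a stress response element (2.59%), the GCC box GCCGCC (1.87%) and the G-box CACGTG (6.49%) were in none of the 9.

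Cold-regulated genes that carry the DRE were higher both in memory plants and in the Gen1 nonmemory and Gen5 WT plants relative to Gen1 WT. In Gen5 memory 6 of 9 were called higher than in Gen5 WT (median log2 fold change 0.77), and in Gen1 memory 6 relative to Gen1 nonmemory (0.68) and 8 relative to Gen1 WT (1.54), with none lower. In Gen5 WT 6 were called higher than in Gen1 WT (0.73), and in Gen1 nonmemory 5 (0.83); the medians over all genes tested lay between -0.01 and 0.01. Of all genes tested, 13.3%, 11.1%, 9.52%, 4.69% and 2.82% were called higher in these 5 comparisons. LTI78, a cold- and drought-induced gene, rose in all 5, by 1.84 on the log2 scale (SE 0.21, edgeR adjusted p = 0.00039) in Gen5 memory relative to Gen5 WT and by 0.84 (SE 0.13, adjusted p = 0.00442) in Gen5 WT relative to Gen1 WT. COR15A, which encodes a chloroplast protein that protects membranes in the cold, had log2 fold changes of 0.27 (SE 0.19, adjusted p = 0.296) in Gen5 memory relative to Gen5 WT and 2.15 (SE 0.18, adjusted p = 0.000484) in Gen5 WT relative to Gen1 WT. As for RAP2.9, Gen1 WT was the lowest group for COR15A, at 21074 to 36764 normalized counts against 107600.2 or more in every other plant.

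The 47 other DREB genes in the tables were mostly higher in memory plants where they were called. In Gen5 memory 19 were higher and 4 lower of 33 tested (median log2 fold change 1.03). In Gen1 memory 12 were higher and 5 lower of 35 relative to Gen1 nonmemory (0.32), and 12 higher and 5 lower of 34 relative to Gen1 WT (0.54). Over all genes tested, 13.3% were called higher and 13.7% lower in the first comparison, 11.1% and 12.2% in the second and 9.52% and 10.5% in the third. In all 3, 10 of the 47 were called higher and 4 lower, though only 33 to 35 of the 47 were tested in each. No share of all genes called alike in all 3 is given, so nothing is read from these counts. AT1G63040, an A-4 gene, was not analysed here.

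The 4 called lower in all 3 were AT1G77640, AT1G22190, AT4G32800 and DEAR2. The DREB genes named in this paragraph and the next were picked by their changes in these same comparisons. Their fold changes and adjusted p values therefore describe them and are no separate support. AT1G77640 (A-5) had the largest fall, with a log2 fold change of -6.04 (SE 0.42, edgeR adjusted p = 3.12e-05) in Gen5 memory relative to Gen5 WT, -4.77 (SE 0.46) relative to Gen1 nonmemory and -5.80 (SE 0.38) relative to Gen1 WT. AT1G22190 (A-6) averaged 1154 ± 234 normalized counts in Gen5 memory and 8500 ± 561 in Gen5 WT (-2.87, SE 0.15, adjusted p = 1.09e-05). AT4G32800 (A-4) fell by 1.93 (SE 0.10, adjusted p = 8.31e-06). AT3G60490 (A-4) was lower in both Gen1 comparisons and had -0.68 (SE 0.28, adjusted p = 0.0884) in Gen5. DEAR2, a sister of CEJ1 named here after its values were seen, fell by 1.44 in Gen5 memory (SE 0.17, adjusted p = 0.000406). Unlike CEJ1, it was also called lower in Gen1 memory than in Gen1 WT, at -1.17 (SE 0.21, adjusted p = 0.00576).

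Among those higher, DREB1A (CBF3), an activator of cold-induced genes, averaged 2667 ± 129 normalized counts in Gen5 memory and 18.2 ± 1.4 in Gen5 WT, a log2 fold change of 7.20 (SE 0.11, edgeR adjusted p = 1.22e-07). It was also higher in Gen1 memory relative to Gen1 nonmemory (5.92, SE 0.38) and Gen1 WT (5.66, SE 0.28). AT2G44940 (A-4) rose by 3.25 (SE 0.11, adjusted p = 1.61e-06) in Gen5 memory. DREB1B and DREB1C rose in all 3, by 3.65 (SE 0.43) and 3.32 (SE 0.50) in Gen5 memory, but their Gen1 calls were thin. Only 1 of the 3 DREB1 genes stayed called higher relative to Gen1 nonmemory without Gen1 memory replicate 3 or any 1 of the 3 nonmemory plants, and relative to Gen1 WT without Gen1 memory replicate 3 or Gen1 WT replicate 1 or 2.

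**Figure D4:**
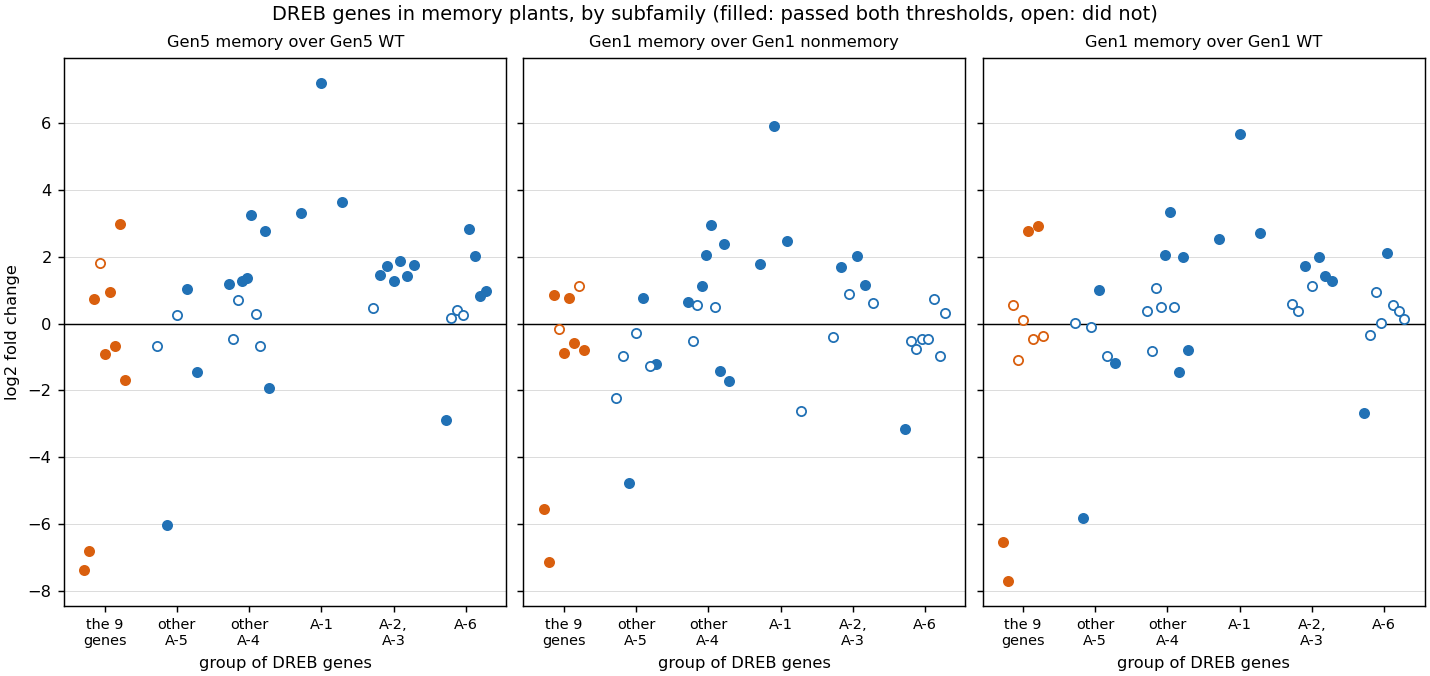
Log2 fold changes (y axis) of all tested DREB genes in the 3 memory comparisons, with 1 panel per comparison, 1 point per gene, orange for the 9 genes and blue for the others, and filled points for genes past both thresholds. DREB1A was the highest point (7.20 in Gen5), and DREB26, AT1G33760 and AT1G77640 were the lowest.

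The genes most like DREB26 and AT1G33760 over the 15 plants were found by Pearson's r of log2 normalized counts among 16998 genes, a description in which the 6 memory and 9 other plants form separate clusters and so set most of r. For DREB26 these were AT5G60270 (r = 0.991), AT2G27500 (0.989), EXO (0.989), AT3G06070 (0.989) and AT4G37240 (0.988). EXO, the gene of the extracellular EXORDIUM protein, had 143 to 266 normalized counts in memory plants and 5237 to 34124 in the others. For AT1G33760 they were AT5G52050 (0.992), AT5G22020 (0.991), AT3G18560 (0.987), AT3G55840 (0.986) and AT5G65920 (0.985). AT5G52050 had 76.1 to 169 normalized counts in memory plants and 1813 to 6112 in the others. Leaving out 1 plant kept between 2 and 5 of the 5 genes in either list, with 2 kept for DREB26 without Gen5 memory replicate 1 and for AT1G33760 without Gen1 nonmemory replicate 1.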

How the data were processed

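RNA was sequenced from 15 plants as unstranded TruSeq v2 libraries with 150-bp read pairs. The authors aligned reads with STAR 2.7.0a and deposited raw counts from QoRTs, taken over uniquely placed reads with a mapping quality of at least 25, 1 table per plant, without normalization; the labels name the build TAIR10. Unique mapping undercounts near-identical copies, and none of the 9 genes had another match of 150 bp or more at 95% identity (blastn 2.17.0). Total counts ran from 77169986 to 79202824, and closing lines that name no gene (0.879% to 1.08% of counts) were left out.

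The 9 genes and all gene lists were chosen with earlier results of these data known. Groups came from the sample labels. Each comparison was fitted on the 6 plants of its 2 groups with edgeR 4.0.16 (filterByExpr, TMM, quasi-likelihood F test, Benjamini-Hochberg adjustment over all tested genes) in R 4.3.3, with the thresholds of the study (adjusted p under 0.05, absolute log2 fold change over 0.5). The SE was obtained from the fold change and its F statistic. The code was tested on simulated data. Named beside the 9 genes were other DREB genes with a mean normalized count of at least 20 and the 3 largest rises or falls of a memory comparison, genes of the jasmonate and cold lists, markers, MSH1, and the 5 genes most like DREB26 or AT1G33760 among genes with a mean of at least 100 (log2 of normalized count plus 1). Coordinates, names and promoter sequences came from RefSeq's TAIR10.1. Alternatives were RLE scaling, the DESeq2 1.42.0 Wald test, no filter, at least 10 counts in every plant, all 15 plants in 1 fit, the replicate number as a block and each plant left out; those for the most alike genes were added after seeing the data. Labels call replicates biological, without saying whether plants shared a pot or day. Replicate plants differed by more than counting noise (chi-square per degree of freedom 14.2 to 139). Some promoter sequence is not reported here.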

Additional observations from a re-analysis of the deposited data

How the results depend on the processing

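Rescaling with RLE kept the number of the 9 genes called in each of the 7 comparisons. With all 15 plants in 1 fit, 4 of the 9 were called in Gen1 nonmemory relative to Gen1 WT (DREB26 and TINY2 gained) and 1 relative to Gen5 WT (ORA47 lost). The count of all genes called in Gen1 nonmemory relative to Gen5 WT was 336, against 634 with DESeq2, 170 with all 15 plants and 164 with the block, and in Gen5 memory relative to Gen1 memory it was 0, against 6 with DESeq2 and 1 with all 15 plants; the causes were not tested. With 1 plant left out, between 4 and 6 of the 9 were called in Gen5 memory relative to Gen5 WT, 5 to 7 in Gen1 memory relative to Gen1 nonmemory, 4 to 5 relative to Gen1 WT, 1 to 3 in Gen1 nonmemory relative to Gen1 WT and 0 to 2 relative to Gen5 WT.

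Plants were taken as paired by replicate number only if all 3 correlations of deviations were above 0.1, which held in none of the 7 comparisons (-0.37 to 0.52). Replicates 1, 2 and 3 gave 0.42, -0.085 and 0.52 between Gen5 WT and Gen1 WT. They gave 0.38, -0.12 and 0.37 between Gen1 memory and Gen1 WT, so this rule does not exclude some pairing. With the replicate block, 0 of the 9 were called in Gen1 nonmemory relative to Gen5 WT, where the log2 fold changes were -1.89 for DREB26 (edgeR adjusted p = 0.0593) and 3.37 for ORA47 (0.0844), and AT3G60490 turned to 0.011 relative to Gen1 WT. The block also ended the RAP2.1 call in Gen5 memory relative to Gen5 WT (0.71). It added calls of TINY2 in Gen1 memory relative to Gen1 nonmemory (1.43) and of DREB26 in Gen1 nonmemory (-1.07, adjusted p = 0.0351) and in Gen5 WT (0.80, adjusted p = 0.0377), both relative to Gen1 WT. It changed no other call of the 9 genes.

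Log2 fold changes that changed sign with 1 plant left out are given as ranges, and none of these genes was called in that comparison with all plants. In Gen1 memory relative to Gen1 nonmemory it was ORA47 (-2.32 to 0.35). In Gen1 nonmemory relative to Gen1 WT they were AT3G60490 (-0.26 to 0.29) and DREB1B (-0.23 to 1.00). In Gen5 WT relative to Gen1 WT they were TINY2 (-0.13 to 0.11) and AT2G44940 (-0.077 to 0.15). In Gen1 nonmemory relative to Gen5 WT they were AT1G33760 (-0.62 to 0.37), CEJ1 (-0.12 to 0.33) and RAP2.9 (-0.11 to 0.26). In Gen5 memory relative to Gen1 memory they were RAP2.1 (-0.18 to 0.29), AT2G44940 (-0.17 to 0.16), TINY2 (-0.17 to 0.16), DREB26 (-0.16 to 0.089), ORA47 (-2.12 to 0.57), AT1G22190 (-0.64 to 0.15), AT3G60490 (-0.22 to 0.12), DREB1B (-1.72 to 0.20), CEJ1 (-0.42 to 0.022), RAP2.9 (-0.22 to 0.20) and RAP2.10 (-0.17 to 0.31). At 1 to 3 reads a plant, depth limits how precisely AT1G33760 is known in memory plants.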
